A study of Mus musculus with 14 samples.

Results

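The mouse genes named Zfp, for zinc finger protein, were followed through picrotoxin treatment of hippocampal cultures and through a list of binding sites of the chromatin reader L3mbtl1. The members were chosen by name and by level: all genes of the count tables whose symbol is Zfp, a number and at most 2 further characters, with at least 1000 counts summed over the 8 RNA-seq libraries. Of 43629 gene identifiers, 406 carried such a symbol and 272 of these reached the threshold, against 10898 genes of any name that did. Of the 134 below it, 9 had no count at all. The members' summed counts ran from 1022 to 44013 with a median of 3293, and together they held 1.05% of all gene counts. Just inside the threshold stood Zfp935 with 1022 and Zfp574 with 1023 counts, and just outside it Zfp53 with 993 and Zfp383 with 990. The threshold uses the summed level, not the difference between the groups, but the sum is not independent of that difference. A gene low in 1 group can pass through the other: Zfp385b had 489 counts in CTRL and 782 in PTX.

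RNA-seq was made from wild-type C57BL6 hippocampal primary cultures, which came from mice of postnatal day 0 to 1 and were grown for 14 days in vitro. The 4 CTRL cultures received 0.1% DMSO for 15 h and the 4 PTX cultures received 100 µM picrotoxin, a blocker of the inhibitory GABA-A receptors that raises network activity, for 15 h. ChIP-seq used an antibody against L3mbtl1 on hippocampus of mice of the mixed C57BL6/129 background at postnatal day 7 to 8, with 3 wild-type and 3 L3mbtl1-/- samples, and 1 peak list stands for all 6. The peaks therefore come from untreated tissue and not from the cultures.

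Most mouse proteins named Zfp carry C2H2 zinc fingers, short loops held by a zinc ion, which are often strung in arrays that read a stretch of DNA. Many of them also carry a KRAB domain, which recruits the corepressor Trim28 and, through it, histone methylation and heterochromatin protein, and a large share of their known targets are transposable elements. These KRAB genes arose by repeated duplication and lie in clusters along the chromosomes. The name also covers unrelated proteins, such as the CCCH fingers of the Zfp36 family, which bind AU-rich elements and speed the decay of mRNA.

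The libraries held 14524916 to 19498189 gene counts. The first principal component of all genes (60.4% of the variance) parted CTRL from PTX, and the second (21%) set both libraries numbered 1 apart from the rest. Of the members, 35 (12.9%) were lowest and 50 (18.4%) highest in both libraries numbered 1 of their groups, against 19.3% and 17.8% of all tested genes. Summed neuron markers lay at 3710 to 4835 CPM (counts scaled to library size) in CTRL and 4282 to 5672 CPM in PTX, with 2 of 5 called higher and 2 of 5 lower. Summed astrocyte markers lay at 5620 to 7661 CPM in CTRL and 4141 to 5846 CPM in PTX, and 3 of 5 fell. Microglia markers summed to 11.6 to 57.5 CPM in CTRL and 16.7 to 92.7 CPM in PTX, and oligodendrocyte markers to 40.6 to 68.7 CPM and 53.6 to 80.5 CPM. Meningeal fibroblast markers summed to 146 to 417 CPM in CTRL and 108 to 339 CPM in PTX, and endothelial markers to 20.8 to 55.1 CPM and 24.8 to 47.3 CPM. Over the same-numbered pairs, the neuron and oligodendrocyte sums were higher in PTX in 4 of 4, the microglia sum in 3 of 4 and the endothelial sum in 2 of 4, while the astrocyte and meningeal fibroblast sums were lower in 4 of 4. With the replicate number as a block in the edgeR fit, 4 of 7 fibroblast markers (Dcn, Igf2, Ogn and Slc6a13) fell and 3 of 5 oligodendrocyte markers (Cldn11, Cnp and Mbp) rose, where the fit without it called none of either list. That block also called the microglia markers Csf1r and P2ry12 higher, and among endothelial markers Flt1 and Pecam1 higher and Kdr lower. Of the 5 neuron markers it called 2 higher and 3 lower, and of the 5 astrocyte markers 3 lower. The blocked fit called 25.7% of all tested genes higher and 29.6% lower. The endothelial marker Cldn5 had 7 counts in all and was at 0 in 4 of the 8 libraries, and no other gene of these lists was at 0 in any library. Fewer cells of a type and less RNA per cell cannot be told apart in such bulk cultures, and the part of cell makeup in the changes of the Zfp genes was not tested.

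Picrotoxin moved the Zfp genes in both directions in nearly equal numbers. Of the 272 members, 56 (20.6%) rose, 55 (20.2%) fell and 161 did not pass the threshold, an adjusted p under 0.05 in edgeR's quasi-likelihood test over all 15959 tested genes. Over all tested genes, 39.2% were called in either direction, 19.0% higher and 20.1% lower. Among the tested genes with at least 1000 counts, which match the members' own threshold, 21.9% were called higher and 23.1% lower. The members' shares of calls thus lay near both backgrounds. Their median log2 fold change was -0.01, with quartiles at -0.23 and 0.24, against -0.35 and 0.30 for all tested genes.

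Large changes were few among the members. Under picrotoxin 10 members (3.68%) rose at least 2-fold, where 6.75% of all tested genes and 5.51% of those with at least 1000 counts did. Among the 272, Zfp239 alone (0.368%) fell at least 2-fold, where 5.13% of all tested genes and 3.95% of those with at least 1000 counts did. Of the 111 calls, 68 were changes of less than 1.5-fold. Among all tested genes 2527 of 6248 calls were that small. Among those with at least 1000 counts, with 2387 calls higher and 2522 lower, 2462 were. The CTRL and PTX values did not overlap for 128 of the 272 members, 106 of them called. The same held for 38.0% of all tested genes and for 4729 of the 10898 with at least 1000 counts. The 93 tested Zfp genes below 1000 counts had 10 calls higher (10.8%) and 13 lower (14.0%), 3 of each of at least 2-fold. Of all 15959 tested genes, 19.0% were called higher and 20.1% lower. As 10898 of those had at least 1000 counts, the levels are not matched. Of the genes with at least 1000 counts in the related Zbtb family, whose zinc fingers stand beside a BTB domain, 8 of 30 rose and 5 fell, and of those named Zscan or Zkscan, with a SCAN domain, 3 of 16 rose and 4 fell.

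**Figure D1:**
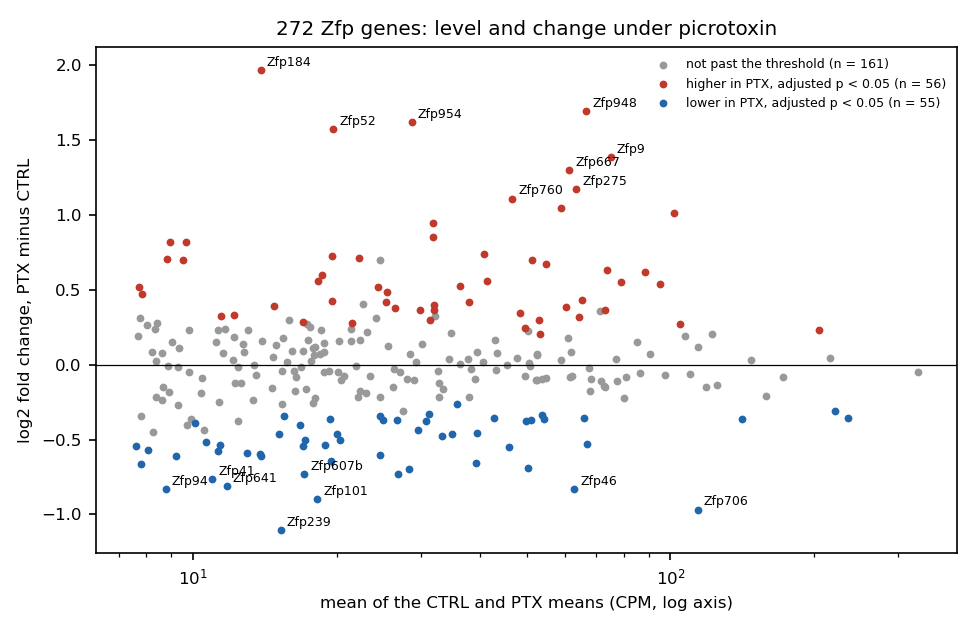
Mean level of each of the 272 Zfp genes (x axis, mean of the CTRL and PTX means in CPM, log axis) against its log2 fold change of PTX over CTRL (y axis), with 56 calls higher, 55 lower and 161 genes not past the threshold. Calls in both directions are spread along the axis of levels, and the points above 1 have a single counterpart below -1, Zfp239.

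Among called members whose groups did not overlap, the 8 with the largest rises were Zfp184, Zfp948, Zfp954, Zfp52, Zfp9, Zfp667, Zfp275 and Zfp760. Zfp184 (ENSMUSG00000006720, chr13:21945053-21960791) was at 5.42, 6.23, 5.04 and 5.88 CPM in CTRL and 27.6, 12.5, 28.2 and 20.1 CPM in PTX, in the order of libraries 1 to 4. Its PTX libraries were spread widely, with library 2 lowest, and still all 4 stood above all CTRL libraries. CTRL averaged 5.64 ± 0.518 CPM and PTX 22.1 ± 7.39 CPM (mean and SD, n = 4 each), for a 3.91-fold rise (edgeR adjusted p = 0.000149, log2 change 1.97 with SE 0.24).

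Zfp948 (ENSMUSG00000067931, chr17:21565816-21589324) was at 32.2, 33.1, 32.1 and 28.2 CPM in CTRL and 111, 82.4, 120.0 and 93.5 CPM in PTX. The CTRL libraries were close together and the PTX libraries far above them, for a 3.24-fold rise (edgeR adjusted p = 6.8e-06, log2 change 1.69 with SE 0.12). Its neighbour Zfp52 (ENSMUSG00000051341, chr17:21533725-21563362) was at 9.96, 10.7, 9.94 and 8.95 CPM in CTRL and 28.98, 28.2, 31.7 and 29.1 CPM in PTX. It held the smallest adjusted p of the 8, with little spread in either group, and rose 2.98-fold (edgeR adjusted p = 2.65e-06, log2 change 1.57 with SE 0.09). Zfp760 (ENSMUSG00000067928, chr17:21707430-21725636), farther along the same stretch of chromosome 17, was at 25.4, 29.7, 31.3 and 31.8 CPM in CTRL and 60.2, 46.9, 89.6 and 58.5 CPM in PTX. Library 3 stood highest in PTX and the groups did not overlap (2.16-fold, edgeR adjusted p = 0.000812, log2 change 1.11 with SE 0.18).

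On chromosome 7, Zfp954 (ENSMUSG00000062116, chr7:7114683-7121476) was at 15.4, 15.3, 13.6 and 12.02 CPM in CTRL and 49.02, 37.6, 50.8 and 36.04 CPM in PTX and rose 3.08-fold (edgeR adjusted p = 1.85e-05, log2 change 1.62 with SE 0.14). Zfp667 (ENSMUSG00000054893, chr7:6286195-6307883), a KRAB protein first named Mipu1 in rat, was at 34.8, 39.5, 36.6 and 30.97 CPM in CTRL and 91.8, 70.8, 101 and 86.2 CPM in PTX and rose 2.46-fold (edgeR adjusted p = 2.67e-05, log2 change 1.30 with SE 0.12). In both genes the lowest PTX library stood clear of the highest CTRL library. Zfp9 (ENSMUSG00000072623, chr6:118461950-118479961) was at 46.2, 41.97, 42.6 and 35.02 CPM in CTRL and 129, 84.6, 114 and 107 CPM in PTX, a 2.62-fold rise (edgeR adjusted p = 3.7e-05, log2 change 1.39 with SE 0.14). The X-linked Zfp275 (ENSMUSG00000031365, chrX:73342593-73359080) was at 39.4, 40.1, 38.1 and 38.5 CPM in CTRL and 97.8, 78.1, 91.9 and 84.5 CPM in PTX and rose 2.26-fold (edgeR adjusted p = 6.72e-06, log2 change 1.17 with SE 0.09). Its CTRL libraries were nearly equal. In all 8 genes each PTX library was above the CTRL library of the same number, which follows from choosing genes without overlap. In 7 of them, all but Zfp954, PTX library 2 was the lowest of its group. The remaining rises of at least 2-fold were Zfp57, described with the other developmental factors, and Zfp131, which was at 72.2, 73.8, 63.4 and 60.8 CPM in CTRL and 152, 119, 143 and 132 CPM in PTX (2.02-fold, edgeR adjusted p = 4.36e-05, log2 change 1.01 with SE 0.10) and was named after its values had been seen.

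Among called members whose groups did not overlap, the 8 with the largest falls were Zfp239, Zfp706, Zfp101, Zfp94, Zfp46, Zfp641, Zfp41 and Zfp607b. Zfp239 (ENSMUSG00000042097, chr6:117862024-117872766), also called Mok2, was at 21.8, 21.04, 22.1 and 18.6 CPM in CTRL and 10.9, 10.6, 9.17 and 8.13 CPM in PTX. CTRL averaged 20.9 ± 1.56 CPM and PTX 9.69 ± 1.28 CPM (mean and SD, n = 4 each), for a 2.15-fold fall (edgeR adjusted p = 7.75e-05, fell by 1.11 on the log2 scale with SE 0.12). Every PTX library lay well under every CTRL library. Zfp706 (ENSMUSG00000062397, chr15:36997027-37007402), a small protein with a single zinc finger, was at 176, 139.6, 156 and 132 CPM in CTRL and 91.5, 68.5, 75.2 and 73.5 CPM in PTX. Libraries 1 were highest in both groups, and the groups did not overlap (1.96-fold lower, edgeR adjusted p = 0.000154, fell by 0.97 on the log2 scale with SE 0.12).

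Zfp101 (ENSMUSG00000055240, chr17:33380174-33394637) was at 27.01, 20.2, 24.1 and 23.3 CPM in CTRL and 12.8, 11.97, 12.5 and 13.6 CPM in PTX, with nearly equal PTX libraries, and fell 1.86-fold (edgeR adjusted p = 0.000147, fell by 0.90 on the log2 scale with SE 0.11). Zfp46 (ENSMUSG00000051351, chr4:136284168-136293942) was at 82.5, 76.4, 82.99 and 80.5 CPM in CTRL and 49.3, 46.9, 41.6 and 43.5 CPM in PTX and fell 1.78-fold (edgeR adjusted p = 3.1e-05, fell by 0.83 on the log2 scale with SE 0.08). Both groups were tight and far apart. Zfp94 (ENSMUSG00000074282, chr7:24301704-24316698) was at 9.44, 13.3, 10.6 and 11.7 CPM in CTRL and 5.62, 8.14, 5.24 and 6.25 CPM in PTX (1.78-fold lower, edgeR adjusted p = 0.00393, fell by 0.83 on the log2 scale with SE 0.17). Library 2 was highest in both groups.

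The other large falls were alike in size. Zfp641 (ENSMUSG00000022987, chr15:98285585-98296515) was at 13.03, 16.6, 16.1 and 14.2 CPM in CTRL and 7.59, 10.03, 8.13 and 8.49 CPM in PTX (1.75-fold lower, edgeR adjusted p = 0.000932, fell by 0.81 on the log2 scale with SE 0.13). Zfp41 (ENSMUSG00000047003, chr15:75615200-75627448) was at 15.4, 13.02, 14.1 and 12.6 CPM in CTRL and 7.02, 9.49, 8.55 and 7.46 CPM in PTX (1.697-fold lower, edgeR adjusted p = 0.00146, fell by 0.76 on the log2 scale with SE 0.13). Zfp607b (ENSMUSG00000057093, chr7:27674661-27706484) was at 23.1, 22.8, 20.8 and 18.7 CPM in CTRL and 14.8, 11.4, 13.5 and 11.7 CPM in PTX (1.66-fold lower, edgeR adjusted p = 0.000932, fell by 0.73 on the log2 scale with SE 0.12). These 8 genes were chosen for groups without overlap, so each PTX library was below the CTRL library of its number by that choice. Paralogous Zfp genes share sequence, so reads of near-identical copies, and of antisense genes, may be split between them in ways these counts do not show.

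**Figure D2:**
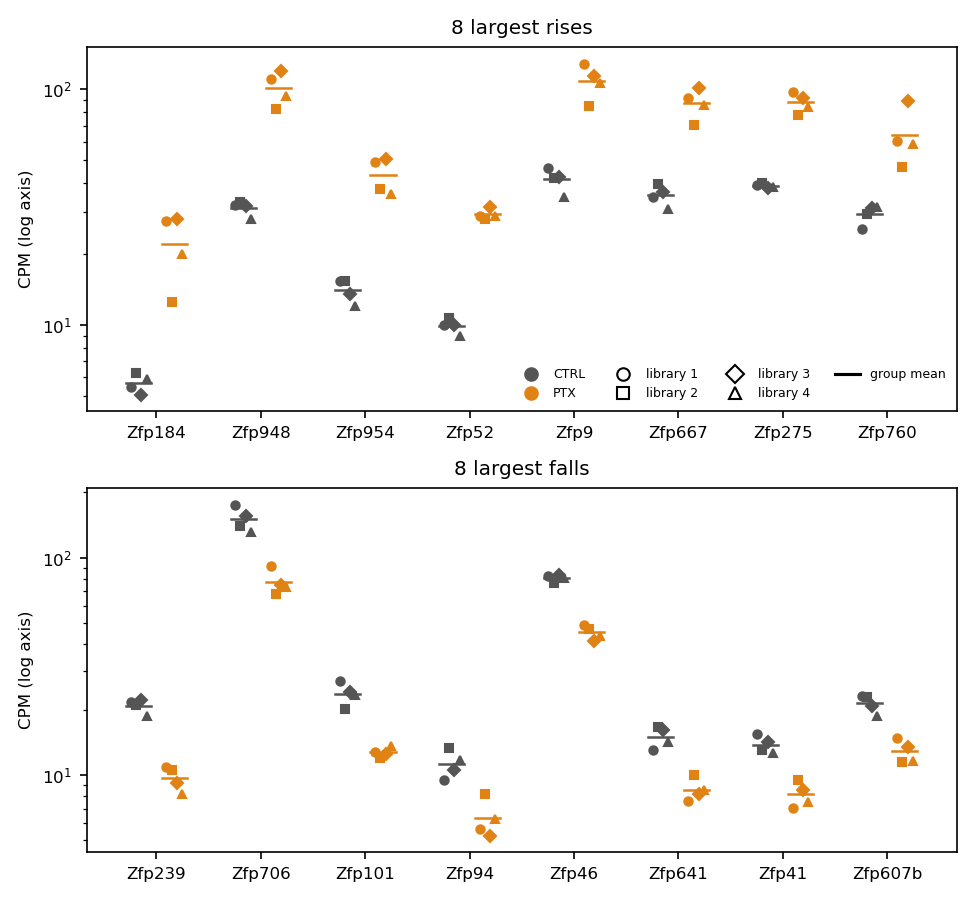
CPM of the 8 largest rises (upper panel) and 8 largest falls (lower panel) in each library (log axis), with CTRL in grey, PTX in orange, 1 marker shape per library number and a bar at each group mean. The 16 genes were chosen from called members whose groups do not overlap. The widest spread is in the PTX libraries of Zfp184, from 12.5 to 28.2 CPM.

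Members with a known role were described by family. The Zfp36 family binds AU-rich elements of mRNA through CCCH fingers. Zfp36l2 (ENSMUSG00000045817, chr17:84183924-84187947) was at 15.8, 21.1, 24.8 and 25.5 CPM in CTRL and 27.9, 39.6, 44.1 and 56.4 CPM in PTX and rose 1.93-fold (edgeR adjusted p = 0.00573, log2 change 0.95 with SE 0.21). Zfp36l1 (ENSMUSG00000021127, chr12:80107760-80113013) was at 11.7, 18.7, 20.9 and 23.9 CPM in CTRL and 16.1, 30.96, 30.2 and 45.1 CPM in PTX. The groups of Zfp36l1 overlapped and the CTRL libraries spanned a wide range, while PTX was higher in 4 of 4 same-numbered pairs (edgeR adjusted p = 0.0853, log2 change 0.70 with SE 0.29). With the replicate number as a block the edgeR log2 change of Zfp36l1 was 0.67 with adjusted p = 3.71e-05, which passes the threshold. Both genes had their lowest values in libraries numbered 1 of each group. Zfp36 itself, tristetraprolin, had 167 counts in all and was no member. It was at 0.649, 1.35, 1.198 and 1.63 CPM in CTRL and 0.574, 1.65, 1.24 and 1.699 CPM in PTX, with overlapping groups.

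Among the members with matrin-type or RNA-binding fingers, Zfp385b (ENSMUSG00000027016, chr2:77410622-77817706) rose. It was at 7.43, 7.41, 6.29 and 6.86 CPM in CTRL and 13.8, 10.4, 12.9 and 12.3 CPM in PTX, without overlap (1.76-fold, edgeR adjusted p = 0.000798, log2 change 0.82 with SE 0.13). Zfp346 (ENSMUSG00000021481, chr13:55105271-55135071), which binds double-stranded RNA, was at 29.9, 24.6, 28.2 and 23.98 CPM in CTRL and 27.8, 26.1, 23.99 and 26.9 CPM in PTX and Zfp638 (ENSMUSG00000030016, chr6:83867068-83986871), a nuclear protein that binds DNA and RNA, at 365, 319, 326 and 329 CPM in CTRL and 309, 317, 351 and 319 CPM in PTX. In both the groups lay over each other, and the log2 changes, -0.03 (SE 0.10) and -0.05 (SE 0.08), did not pass the threshold (edgeR adjusted p = 0.869 and 0.67). Their relatives Zfp385a and Zfp385c, with 223 and 12 counts, were below the members' threshold.

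Of the C2H2 factors known from brain or development, Zfp57 showed the largest change. Zfp57 (ENSMUSG00000036036, chr17:37001163-37010729), a KRAB protein that keeps DNA methylation at imprinted genes in the early embryo, was at 40.8, 40.9, 35.6 and 37.04 CPM in CTRL and 90.6, 69.8, 83.7 and 74.3 CPM in PTX. Every PTX library was well above every CTRL library (2.06-fold, edgeR adjusted p = 3.17e-05, log2 change 1.04 with SE 0.10). Zfp462 (ENSMUSG00000060206, chr4:54944491-55083563), whose human counterpart is mutated in a neurodevelopmental syndrome, was at 60.9, 64.97, 86.3 and 98.1 CPM in CTRL and 96.4, 86.1, 130.0 and 139 CPM in PTX. Its groups overlapped and its call was close to the threshold (1.46-fold higher, edgeR adjusted p = 0.0476, log2 change 0.54 with SE 0.19), though PTX was higher in 4 of 4 pairs. That call was lost without both libraries numbered 1, and when CTRL library 1, 2 or 3 or PTX library 3 or 4 alone was left out (edgeR adjusted p up to 0.14).

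Several brain factors passed the threshold with the replicate number as a block in the edgeR fit and not in the same fit without it. The blocked fit called 25.7% of all tested genes higher and 29.6% lower. Some alternatives without the block, though not all, also called Zfp711 (DESeq2 adjusted p = 0.0479), Zfp335 (RLE scaling, edgeR adjusted p = 0.0413) and Zfp536 (without both libraries numbered 1, edgeR adjusted p = 0.033). Zfp536 (ENSMUSG00000043456, chr7:37318023-37774039), a repressor of neuronal differentiation, was at 25.9, 16.3, 18.1 and 17.8 CPM in CTRL and 32.4, 18.8, 27.02 and 25.2 CPM in PTX. PTX was higher in each of the 4 pairs, with an edgeR adjusted p of 0.118 without and 0.00163 with the block. Zfp711 (ENSMUSG00000025529, chrX:112600526-112635070), an X-linked gene whose human counterpart is linked to intellectual disability, was at 76.4, 60.3, 59.5 and 53.8 CPM in CTRL and 82.7, 65.1, 96.9 and 75.7 CPM in PTX. Its edgeR adjusted p was 0.0692 without and 0.00628 with the block, and PTX was again higher in 4 of 4 pairs. Zfp335 (ENSMUSG00000039834, chr2:164891882-164912585), a component of a histone methyltransferase complex whose human counterpart is mutated in microcephaly, was at 17.1, 15.8, 15.5 and 16.1 CPM in CTRL and 20.6, 17.5, 18.7 and 19.8 CPM in PTX (edgeR adjusted p = 0.0565 without and 0.0258 with the block). Its groups did not overlap. Zfp423 (ENSMUSG00000045333, chr8:87661810-87962053), a factor of cerebellar development and of fat cell precursors, was at 9.38, 10.2, 13.1 and 11.7 CPM in CTRL and 4.72, 10.2, 8.07 and 10.6 CPM in PTX and lower in PTX in 4 of 4 pairs. Its log2 change was -0.40 (SE 0.24), with an edgeR adjusted p of 0.209 without and 0.0289 with the block.

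The other members of this group did not pass the threshold in either fit. Zfp521, a relative of Zfp423, was at 17.98, 22.6, 28.8 and 26.2 CPM in CTRL and 14.7, 22.5, 20.5 and 24.4 CPM in PTX (edgeR adjusted p = 0.385). Zfp804a, whose human counterpart is a schizophrenia risk gene, was at 13.8, 8.53, 11.5 and 9.02 CPM in CTRL and 15.3, 11.3, 11.4 and 12.6 CPM in PTX (edgeR adjusted p = 0.332). Zfp281, a factor of pluripotent cells, was at 82.1, 84.8, 78.7 and 74.9 CPM in CTRL and 68.5, 80.1, 76.3 and 72.3 CPM in PTX (edgeR adjusted p = 0.317). Zfp292 was at 161, 142, 137 and 145 CPM in CTRL and 166, 130.2, 155 and 145 CPM in PTX (edgeR adjusted p = 0.83). In all 4 genes the groups overlapped. Of their relatives below 1000 counts, Zfp804b rose from 2.12 ± 0.514 to 3.59 ± 0.806 CPM (SD, n = 4 each, edgeR adjusted p = 0.0306) and Zfp503 from 1.83 ± 0.504 to 3.41 ± 0.714 CPM (edgeR adjusted p = 0.02). Both calls were lost in edgeR when CTRL library 2 or 4 was left out, that of Zfp804b also without CTRL library 3, without PTX library 1 or without the filter on low counts. For Zfp703, CTRL averaged 1.57 ± 0.957 CPM and PTX 2.22 ± 0.654 CPM, and it was not called (edgeR adjusted p = 0.4).

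The members with the most counts changed little. CPM are not corrected for transcript length, so levels are not compared between genes. Zfp644 (ENSMUSG00000049606, chr5:106616739-106696834), a partner of the histone methyltransferases G9a and GLP, was at 284, 264, 267 and 240.1 CPM in CTRL and 191, 224, 215 and 194 CPM in PTX, without overlap (1.28-fold lower, edgeR adjusted p = 0.00785, fell by 0.36 on the log2 scale with SE 0.09). Zfp207 (ENSMUSG00000017421, chr11:80383279-80408561), also called BuGZ, a protein of the mitotic spindle, was at 266, 232, 235 and 246 CPM in CTRL and 204, 184, 204 and 198 CPM in PTX and fell 1.24-fold (edgeR adjusted p = 0.00959, fell by 0.31 on the log2 scale with SE 0.08). These small falls were called with all 8 libraries, but leaving out both libraries numbered 1 ended both calls, with edgeR adjusted p of 0.0544 for Zfp644 and up to 0.0853 over the alternatives for Zfp207, whose call was also lost without CTRL library 1 or PTX library 3 or 4. Zfp91 (ENSMUSG00000024695, chr19:12766939-12796123), an E3 ubiquitin ligase, was at 226, 219, 210.2 and 194 CPM in CTRL and 217, 231, 221 and 206 CPM in PTX, with overlapping groups and no call (edgeR adjusted p = 0.693). At the other end of the scale, Zfp935, just inside the count threshold, was at 9.44, 8.53, 8.29 and 9.800 CPM in CTRL and 4.98, 6.78, 5.998 and 6.92 CPM in PTX and fell 1.46-fold (edgeR adjusted p = 0.0148, fell by 0.54 on the log2 scale with SE 0.15), a call lost without both libraries numbered 1 and without PTX library 3. Zfp574 was at 7.49, 6.62, 7.04 and 7.51 CPM in CTRL and 8.74, 8.905, 7.38 and 7.71 CPM in PTX and was not called (edgeR adjusted p = 0.273).

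The proteins through which KRAB zinc fingers act were read from the same fit, as a list of 20 genes. Trim28, the corepressor that binds the KRAB domain, was at 108, 109, 108 and 96.9 CPM in CTRL and 99.4, 119, 99.2 and 102 CPM in PTX, and Setdb1, the H3K9 methyltransferase recruited by it, at 70.2, 63.6, 65.96 and 68.1 CPM in CTRL and 61.6, 58.7, 58.8 and 62.1 CPM in PTX. Neither was called (edgeR adjusted p = 0.965 and 0.114), although the Setdb1 groups did not overlap. In all, 2 of the 20 rose (10.0%) and 6 fell (30.0%), where 19.0% of all tested genes were called higher and 20.1% lower. All 20 had at least 1000 counts, and of the tested genes past that level 21.9% were called higher and 23.1% lower. The partners' median log2 fold change was -0.14 against -0.03 over all tested genes. Dnmt1, the maintenance DNA methyltransferase, rose from 101 ± 4.296 to 184 ± 9.62 CPM (SD, n = 4 each, 1.82-fold, edgeR adjusted p = 1.52e-05). Pphln1, periphilin of the HUSH silencing complex, rose from 36.9 ± 3.63 to 61.4 ± 4.86 CPM (1.66-fold, edgeR adjusted p = 0.000216).

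The 6 falls among these partners were small. They were the heterochromatin proteins Cbx1 (fell by 0.25 on the log2 scale), Cbx3 (by 0.26) and Cbx5 (by 0.34), the Setdb1 partner Atf7ip (by 0.38) and the NuRD helicases Chd3 (by 0.42) and Chd4 (by 0.30). Their edgeR adjusted p ran from 0.0155 to 0.0449. This count depended on single libraries: 1 fall was called without CTRL library 1, 1 without PTX library 1, 0 without PTX library 3, 3 without CTRL library 3, 3 without PTX library 4 and 1 without both libraries numbered 1. Without PTX library 3, 4 of the 20 were lower at an unadjusted edgeR p under 0.05, and DESeq2 on all libraries called 5 lower. With the replicate block 4 partners rose, the 2 above with Morc2a and Hdac2, and 9 fell, in a fit that called 25.7% of all tested genes higher and 29.6% lower. Most of these partners have many functions outside the KRAB pathway.

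Zfp genes lie in clusters, and the members were grouped into runs of neighbours at most 500 kb apart. The grouping was made after the data had been seen and carries no test. The 10 runs of at least 5 members held 89 of the 272, of which 20 rose (22.5%) and 21 fell (23.6%). Another 80 stood in shorter runs, with 15 rises (18.8%) and 16 falls (20.0%), and 103 stood alone, with 21 rises (20.4%) and 18 falls (17.5%). These shares lay near those of all tested genes with at least 1000 counts, 21.9% and 23.1%. Rises and falls stood together in 8 of the 10 runs, and in 7 of the 10 under every alternative of the fit other than the replicate block, since the only fall in the run from Zfp160 to Zfp13 was then lost. The 2 exceptions were the run from Zfp787 to Zfp28 on chromosome 7, with Zfp667 as its single call, and the run from Zfp871 to Zfp101 on chromosome 17.

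The run from Zfp160 to Zfp13 (GRCm38.p6, chr17:21008941-23599755) held 17 members, of which 6 rose and 1 fell. The rises were led by the adjacent genes Zfp52 and Zfp948 and by Zfp760. Zfp51 (ENSMUSG00000023892, chr17:21450374-21465591), nearer the start of the run, was at 7.25, 7.69, 7.49 and 4.38 CPM in CTRL and 11.6, 10.2, 11.4 and 10.7 CPM in PTX (1.64-fold, edgeR adjusted p = 0.0106, log2 change 0.71 with SE 0.18). Zfp942 was at 63.3, 55.9, 55.3 and 54.5 CPM in CTRL and 67.9, 69.9, 78.5 and 69.7 CPM in PTX (1.25-fold, edgeR adjusted p = 0.0115, log2 change 0.32 with SE 0.08) and Zfp944 at 25, 23.3, 22.2 and 21.6 CPM in CTRL and 26.4, 31.3, 30.8 and 31.4 CPM in PTX (1.301-fold, edgeR adjusted p = 0.00864, log2 change 0.38 with SE 0.09). In these 3 the PTX libraries were all above the CTRL libraries, by small margins in Zfp942 and Zfp944. Between these genes stood others that did not pass the threshold. Zfp53 (chr17:21488934-21533201, 993 counts and so no member) ends just before Zfp52 and was at 8.08, 7.57, 7.64 and 7.64 CPM in CTRL and 6.76, 7.25, 7.51 and 6.86 CPM in PTX (log2 change -0.12, edgeR adjusted p = 0.452). Zfp229, the neighbour of Zfp760, was at 20.7, 22.4, 25.97 and 28.9 CPM in CTRL and 16.9, 20.5, 24.5 and 24.3 CPM in PTX (log2 change -0.19, edgeR adjusted p = 0.359). The 1 fall, Zfp946, was at 10.7, 12.2, 11.1 and 11.8 CPM in CTRL and 9.32, 8.14, 7.101 and 10.4 CPM in PTX, and its edgeR adjusted p of 0.0494 was close to the threshold. That call was lost in DESeq2, under RLE scaling, without the filter on low counts and when any 1 library was left out. With the replicate block 8 members of the run rose, the 6 above with Zfp995 (edgeR adjusted p = 0.0242) and Zfp758 (edgeR adjusted p = 0.00517). Of 9 other tested genes in the interval 3 rose and 1 fell.

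The run from Zfp871 to Zfp101 (GRCm38.p6, chr17:32765496-33394637), on the same chromosome, held 12 members, of which 7 fell and 0 rose. None of the 12 was higher at an unadjusted p under 0.05, in edgeR or in DESeq2. The median log2 fold change of the 12 was -0.36. Zfp101 showed the largest fall of the run. Zfp563 was at 17.3, 16.2, 18.5 and 14.5 CPM in CTRL and 11.7, 10.9, 11.7 and 9.65 CPM in PTX and fell 1.51-fold (edgeR adjusted p = 0.00268, fell by 0.60 on the log2 scale with SE 0.12), and Zfp811 was at 14.4, 13.7, 13.8 and 12.02 CPM in CTRL and 9.06, 9.67, 9.996 and 7.46 CPM in PTX and fell 1.49-fold (edgeR adjusted p = 0.00533, fell by 0.58 on the log2 scale with SE 0.13). In these, and in Zfp799, Zfp763, Zfp955b and Zfp81, all PTX libraries were below all CTRL libraries. The falls of Zfp799 (0.35 on the log2 scale), Zfp763 (0.37), Zfp955b (0.36) and Zfp81 (0.36) were shallow and nearly alike. Zfp952 was at 43.8, 34.95, 32.4 and 33.3 CPM in CTRL and 40.1, 37.3, 33.4 and 34.5 CPM in PTX with a log2 change of 0.01 (SE 0.11), the only one of the 12 above 0. The number of falls was 5 without both libraries numbered 1 and 5 to 7 when single libraries were left out. Of the 3 other tested genes in the interval, Cyp4f14 and Morc2b also fell.

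Another long run, from Zfp712 to Zfp273 (GRCm38.p6, chr13:67038594-67827000), held 13 members with 1 rise and 5 falls. Zfp712 was at 15.04, 18.5, 17.7 and 15.8 CPM in CTRL and 10.3, 10.7, 12.6 and 10.4 CPM in PTX and fell 1.52-fold (edgeR adjusted p = 0.00225, fell by 0.61 on the log2 scale with SE 0.12). Zfp874b was at 22.2, 25.3, 22.5 and 22.9 CPM in CTRL and 16.7, 17.2, 16.8 and 16.8 CPM in PTX (1.38-fold lower, edgeR adjusted p = 0.00182, fell by 0.46 on the log2 scale with SE 0.08), while its neighbour Zfp874a was at 28.5, 30.7, 25.7 and 25.2 CPM in CTRL and 28.8, 26.2, 29.1 and 22.6 CPM in PTX with overlapping groups (edgeR adjusted p = 0.775). Zfp748 was the 1 rise, at 24.1, 28.7, 26.96 and 24.8 CPM in CTRL and 32.9, 29.2, 37.4 and 34.95 CPM in PTX (1.28-fold, edgeR adjusted p = 0.0168, log2 change 0.36 with SE 0.10). The other falls were Zfp759, Zfp738 and Zfp273, of 0.54, 0.33 and 0.52 on the log2 scale.

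**Figure D3:**
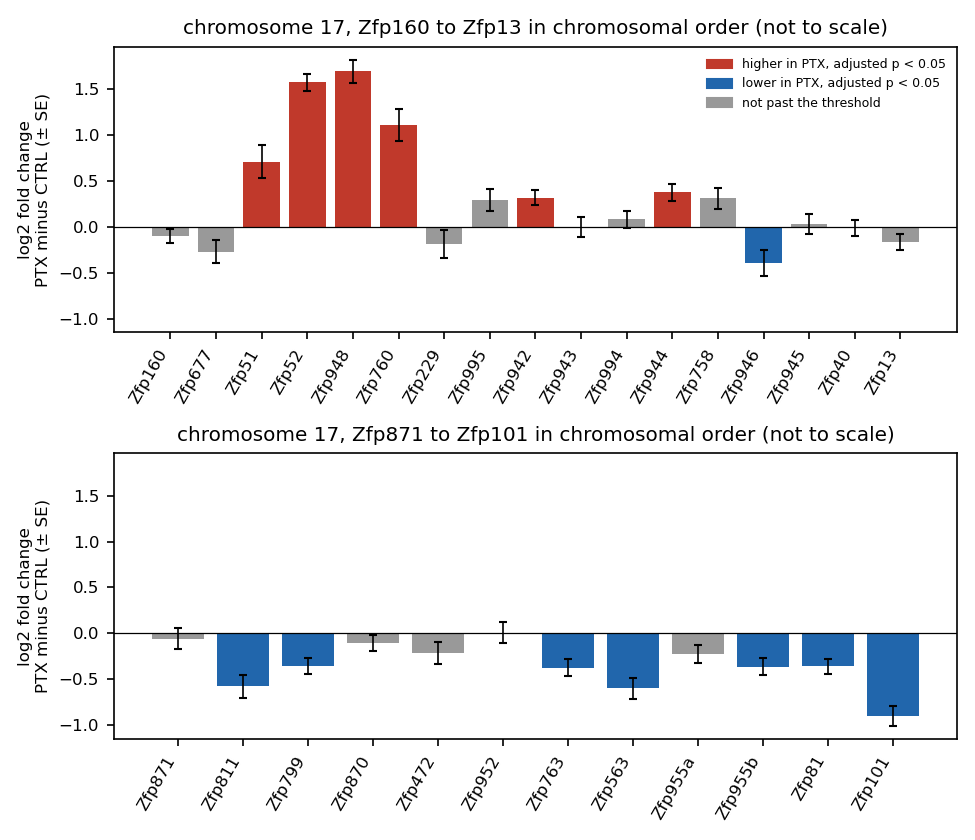
Log2 fold change of PTX over CTRL with its SE for the 17 members from Zfp160 to Zfp13 (upper panel) and the 12 from Zfp871 to Zfp101 (lower panel), in chromosomal order and not to scale. The upper run holds 6 rises and 1 fall with Zfp52, Zfp948 and Zfp760 above 1, and the lower run holds 7 falls and no rise.

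The promoters of the genes at the head of these runs are shown to let the neighbours be compared. They are windows of 300 bases from RefSeq (GRCm38.p6), from 250 bases before to 50 after an annotated start, and 229 of the 272 members had at least 1. Where a gene had several, the first listed is printed. The windows of Zfp948 and Zfp52 lie inside the gene intervals given above, past their first bases, so another start may lie upstream. Zfp948 (chr17:21566728-21567027, plus strand) and Zfp52 (chr17:21535289-21535588, plus strand) are the adjacent genes that rose most in their run, and capitals mark runs of 9 or more bases that both windows share.
Zfp948: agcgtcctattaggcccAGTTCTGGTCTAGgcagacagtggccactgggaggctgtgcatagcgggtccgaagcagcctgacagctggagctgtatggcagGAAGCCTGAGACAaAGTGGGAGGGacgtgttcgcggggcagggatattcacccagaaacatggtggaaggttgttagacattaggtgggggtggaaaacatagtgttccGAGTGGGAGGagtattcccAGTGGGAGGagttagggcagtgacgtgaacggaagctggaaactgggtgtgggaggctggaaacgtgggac
Zfp52: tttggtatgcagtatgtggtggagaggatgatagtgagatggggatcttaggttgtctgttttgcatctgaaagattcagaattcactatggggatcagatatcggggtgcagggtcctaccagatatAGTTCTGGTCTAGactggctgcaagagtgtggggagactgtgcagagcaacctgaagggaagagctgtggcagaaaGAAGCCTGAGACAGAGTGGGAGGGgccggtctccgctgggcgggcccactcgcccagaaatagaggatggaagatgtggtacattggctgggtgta
The shared bases numbered 55 in the Zfp948 window and 37 in the Zfp52 window, and in Zfp948 the run AGTGGGAGG occurred repeatedly.

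The next windows belong to genes that fell together in the other run, Zfp101 (chr17:33394588-33394887, minus strand), Zfp81 (chr17:33358829-33359128, minus strand) and Zfp563 (chr17:33089117-33089416, plus strand). Capitals mark CCAAT on either strand, the core of the site of the factor NF-Y.
Zfp101: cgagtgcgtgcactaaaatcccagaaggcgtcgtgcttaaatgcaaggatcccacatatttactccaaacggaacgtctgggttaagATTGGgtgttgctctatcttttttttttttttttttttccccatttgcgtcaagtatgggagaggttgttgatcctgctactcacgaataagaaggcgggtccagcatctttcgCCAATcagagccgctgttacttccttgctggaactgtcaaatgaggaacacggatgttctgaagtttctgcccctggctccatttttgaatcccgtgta
Zfp81: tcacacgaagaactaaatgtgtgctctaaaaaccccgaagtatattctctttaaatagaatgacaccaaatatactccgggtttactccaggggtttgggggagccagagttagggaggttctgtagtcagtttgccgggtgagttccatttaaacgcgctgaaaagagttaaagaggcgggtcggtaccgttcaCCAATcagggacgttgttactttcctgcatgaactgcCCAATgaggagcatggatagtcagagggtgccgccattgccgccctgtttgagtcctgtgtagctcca
Zfp563: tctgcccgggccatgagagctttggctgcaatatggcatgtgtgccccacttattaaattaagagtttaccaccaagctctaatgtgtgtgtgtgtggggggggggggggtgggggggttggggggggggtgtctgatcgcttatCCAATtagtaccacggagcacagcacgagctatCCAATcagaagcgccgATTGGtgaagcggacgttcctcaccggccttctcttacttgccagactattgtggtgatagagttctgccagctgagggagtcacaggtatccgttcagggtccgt
Zfp101 and Zfp81 each held 2 copies and Zfp563 held 3. These genes were picked from the 7 falls of the run, and copies in its other members are not given here.

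Motifs were then counted on both strands in all promoter windows. CCAAT was in 46.6% of the 279 windows of members and in 37.4% of the 10775 windows of other genes with at least 1000 counts, as in 37.4% of all 32851 windows. It was in 52.5% of the windows of members that fell in 41.0% of those that rose and in 46.5% of those not called. The ETS core CCGGAAG was in 20.8% of the members' windows, 17.2% of those of the other genes with as many counts and 8.86% of all. The consensus NRF1 site was in 3.58% of the members' windows against 2.08% and 0.971%, in 5 of 61 windows of members that rose, 1 of 61 of those that fell and 4 of 157 of those not called. Sites of activity-regulated factors were sparse. The CRE, TGACGTCA, was in 2.87% of the members' windows and 3.30% of those of the other genes, and the AP-1 site TGANTCA in 5.02% and 4.70%. No motif's letters contain another's, and a match says only that the letters are in the window.

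L3mbtl1 peaks lay near few Zfp genes. The authors' list held 4677 peaks, each with a score of the authors' own, from 8.17 to 52.24. Of the 272 members, 46 (16.9%) had a peak within 2000 bp of either gene end, against 3184 of 10332 other genes with at least 1000 counts (30.8%). When the other genes were weighted to the members' distribution over 10 bins of summed counts, their share was 28.9%. The members' share was the lower one in bins 1 to 8, and in bins 9 and 10, with the most counts, 4 of 8 and 3 of 5 members had a peak. Genes of one run share a region and an origin and are not independent, so the shares carry no test.

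The share of members with a peak differed with the number of Zfp neighbours. Of the 103 members that stood alone, 28 (27.2%) had a peak, near the share of other genes, against 13 of the 80 in shorter runs (16.2%) and 5 of the 89 in runs of at least 5 (5.62%). The 5 were Zfp382, Zfp260 and Zfp568 in the run from Zfp84 to Zfp146, Zfp94, and Zfp850. No member of the long runs on chromosomes 13 and 17 had a peak. Unlike the comparison with other genes, this split by runs was not matched for counts. How well ChIP reads map among similar copies was not tested. Among the Zbtb genes 13 of 30 (43.3%) had a peak, and among the Zscan and Zkscan genes 2 of 16 (12.5%).

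**Figure D4:**
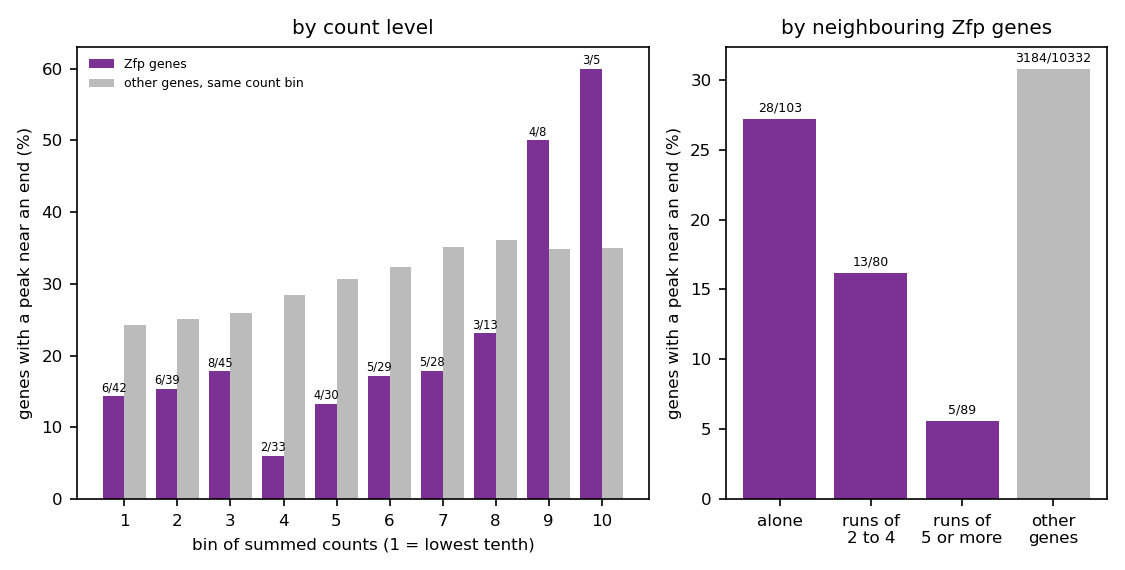
Share of genes with an L3mbtl1 peak within 2000 bp of a gene end (y axis, percent), for Zfp genes and other genes by bin of summed counts (left) and for Zfp genes by the number of Zfp neighbours (right), with numbers of genes above the bars. The share is 27.2% for Zfp genes that stand alone, 16.2% in shorter runs, 5.62% in runs of 5 or more and 30.8% for other genes. The right panel is not matched for counts.

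Zfp518a, Zfp664, Zfp644, Zfp654 and Zfp704 had the peaks of highest score. The peak of Zfp518a (chr19:40894406-40895925, score 26.8) lay near the start of the gene and near no end of another protein-coding gene. That of Zfp644 (chr5:106695058-106696889, score 24.4) also lay near the start, and Zfp644 was the only one of these 5 genes called under picrotoxin. The peak of Zfp664 (chr5:124860532-124862933, score 24.5) also lay near an end of Ccdc92, and it spanned the whole Zfp664 promoter window, chr5:124862455-124862754 on the plus strand, in which capitals mark CG dinucleotides, the sites of DNA methylation.
Zfp664: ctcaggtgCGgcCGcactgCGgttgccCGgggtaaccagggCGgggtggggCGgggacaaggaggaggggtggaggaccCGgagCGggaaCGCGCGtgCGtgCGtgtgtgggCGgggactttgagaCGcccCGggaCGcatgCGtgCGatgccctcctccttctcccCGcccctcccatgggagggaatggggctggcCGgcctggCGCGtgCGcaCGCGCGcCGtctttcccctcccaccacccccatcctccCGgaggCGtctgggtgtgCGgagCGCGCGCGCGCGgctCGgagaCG
This window held 39 CG dinucleotides and was 75% G and C. The median was 59.8% G and C with 22 CG dinucleotides in windows of members with a peak, and 54.3% with 14 in windows of members without one. Windows of other genes with at least 1000 counts had medians of 64.0% with 25 and 60.7% with 19. The part of base composition in the peak shares was not tested.

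In the cultures Zfp644 fell, as given above, and the other 4 of these genes were not called. Zfp518a (ENSMUSG00000049164, chr19:40894031-40917947) was at 55.8, 50.8, 57.2 and 53.97 CPM in CTRL and 49.6, 48.8, 48.6 and 55.6 CPM in PTX and Zfp664 at 57.7, 67.9, 64.1 and 65.9 CPM in CTRL and 58.1, 57.03, 62.1 and 65.7 CPM in PTX. Zfp654 (peak chr16:64852671-64853511, score 16.4) was at 39.98, 32.5, 34.6 and 29.5 CPM in CTRL and 32.7, 23.2, 35.6 and 33.98 CPM in PTX and Zfp704 (peak chr3:9607677-9609468, score 15.3) at 198, 139, 178 and 194 CPM in CTRL and 195, 131, 174 and 169 CPM in PTX. In these 4 the groups overlapped and no call was made (edgeR adjusted p = 0.324, 0.527, 0.546 and 0.691).

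Of the 46 members' peaks, 34 lay at the start of the gene, 1 at the other end and 11 near genes whose strand was not given. The end of a further protein-coding gene lay within reach of 16 of them, so that those peaks cannot be assigned to the Zfp gene alone. Noncoding genes were not searched. Where a member had several peaks, the one of highest score was taken. The members' peaks so chosen had a median width of 544.5 bp and a median score of 10.84. Over all peaks, not chosen by score, the medians were 747 bp and 10.69. A peak was present at 8 of the 56 members that rose (14.3%), 7 of the 55 that fell (12.7%) and 31 of the 161 not called (19.3%). Among other genes the shares were 35.0% of those that rose, 28.5% of those that fell and 30.1% of those not called. The transcript of L3mbtl1 itself was at 9.85, 8.81, 10.04 and 11.2 CPM in CTRL and 2.36, 5.603, 1.52 and 2.18 CPM in PTX, without overlap (edgeR adjusted p = 0.00249, fell by 1.76 on the log2 scale with SE 0.34).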

How the data were processed

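The members and gene lists were chosen with earlier results of these data known. The authors deposited 1 table of unnormalized read counts per RNA-seq library, by Ensembl identifier. Per the labels' protocols, RNA depleted of ribosomal RNA entered ScriptSeq v2 libraries. The submitters' processing notes name CASAVA 1.8, TopHat2 2.0.9, HTSeq 0.6.1, Bowtie2 2.2.4 and build mm10, without roles. For the strand setting and the annotation release, the sources used here give nothing. Of 43629 identifiers, 42462 had a symbol. Each table's 5 summary lines stayed out of the library sizes; they put 19.9% to 26.8% of alignments outside genes and 15.2% to 20.5% at non-unique positions. No library was a copy of another (smallest chi-square per degree of freedom within a group 10.3).

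PTX and CTRL were compared in edgeR 4.0.16 (R 4.3.3; quasi-likelihood test with group as the only term, filterByExpr and TMM scaling), with Benjamini-Hochberg adjustment over all tested genes, and all 272 members passed the filter. CPM use TMM-scaled library sizes, and the SE is the log2 fold change over the root of F. The design text calls the samples biological replicates, and the p-values set the group difference against the spread between them. Same-numbered samples deviated together for numbers 1, 2 and 4 (correlations 0.770, 0.566 and 0.608). For number 3 the correlation was 0.154, and CTRL library 3 followed a PTX library of another number more closely. The block and the counts over pairs thus rest on a pairing that the data show only in part. The fit with that block, DESeq2 1.42.0, RLE scaling, no filter, and fits without libraries numbered 1 or any single library were alternatives.

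Named genes are the 8 largest rises and falls among called members without overlap, the 4 of highest mean CPM, the 5 with peaks of highest score, the 2 genes on each side of the threshold and a list of known roles. Neighbours in runs and Zfp131 were named after their values were seen. The ChIP-seq list gives 1 score per peak, deposited by the authors for all 6 samples together. What the score means, how peaks were called and filtered by IDR, and how the knockout samples entered is not given in the sources used here. Gene positions and promoters are RefSeq's, GRCm38.p6.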

Additional observations from a re-analysis of the deposited data

Results flagged for a closer look

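Zfp518a stood out in 1 library: its level was 55.6 CPM in PTX library 4, while PTX libraries 1 to 3 lay between 48.6 and 49.6 CPM. The gap to the nearest of these was 0.858 of the group's range, above Dixon's 95% critical value for 4 samples. Chance passes this limit in about 1 of 20 groups. Over the 40 named members 1 of 80 groups passed it, and over all members 31 of 544 did. Leaving out PTX library 4 left Zfp518a without a call.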

How the results depend on the processing

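Rises and falls among the members kept within 1.5 times their counts under every alternative of the fit. With the replicate block 72 rose (25.7% of all tested genes did) and 69 fell (29.6%), and all 111 calls of the unblocked fit held, while 30 further members were called. Counts of rises and falls were 61 and 51 in DESeq2 and with RLE scaling, 44 and 52 without the filter, and 58 and 42 without libraries numbered 1. Leaving out 1 library gave 43 to 64 rises, 43 to 52 falls and 20 to 26 calls among the 40 named members (23 with all libraries). KRAB partners that rose numbered 4 with the block and 2 to 4 with 1 library left out. Those that fell numbered 1 without libraries numbered 1 and 0 to 5 with 1 library left out. The block moved no other count by over 1.5 times. The fall of Zfp946 left 0 falls in the run around Zfp948 in DESeq2, with RLE scaling, without libraries numbered 1, without the filter, with runs ended by gaps of 200 kb, and in each fit without 1 library (0 to 0). With 1 library left out, the run around Zfp948 had 6 to 8 rises and that around Zfp101 had 5 to 7 falls. Members with a peak numbered 24 (8.82%) when only peaks scoring above the list's median were used, where other genes had 17.5%, by the construction of that alternative, and 37 to 55 in the others. Of 520 alternative values for the named members, 472 kept direction and call, 13 lost a call, 18 gained one and 17 changed sign. The signs that changed were all of genes near 0 without a call. Zfp346 was at 0.0049 in DESeq2, 0.0075 with RLE scaling, 0.041 without libraries numbered 1 and -0.076 to 0.085 with 1 library left out. Zfp638 was at 0.056 without libraries numbered 1 and -0.083 to 0.045 with 1 library left out, Zfp654 at -0.19 to 0.014, Zfp704 at -0.19 to 0.025, Zfp91 at -0.00061 to 0.14 and Zfp292 at -0.0013 to 0.13. The cause of these changes was not tested. The planned grouping by protein domains was not run, since no protein table was used here. Members close to 1000 counts have few reads per library, and small changes there may not be detectable at this depth.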
